A study of Mus musculus with 119 samples.

Results

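The amygdala (Amy) and the nucleus accumbens (NAc) were compared in mice that had received vehicle only. The samples were chosen by their titles, which gave 24 of the 119 samples of the series, 12 from the Amy and 12 from the NAc, with 6 females and 6 males in each region. All 24 samples came from mice with the same treatment, daily intraperitoneal vehicle from postnatal day 28 to 48, with behavioral tests from postnatal day 63, and the labels give strain C57BL/6J and an age of 11 weeks. The methods of the study name the substrain C57BL/6NCrl instead, and describe the vehicle as ethanol, Tween and saline. A sample is 1 tissue punch of 1 mouse, cut from frozen slices, so it holds whatever cell types and neighbouring tissue the punch took. By the study's methods, each region was punched from each of 24 brains, vehicle and THC together. The 12 Amy and 12 NAc samples thus came from the same vehicle mice. The labels do not say which Amy and NAc samples belong to 1 mouse, so the regions were compared as independent samples. Polyadenylated RNA was sequenced, and the levels below are CPM, the usual depth-scaled unit in which the counts of a gene are divided by the total of its sample, after TMM scaling, a scaling that makes samples of different depth comparable. Because these are counts per gene and not per length, a level is compared between samples of 1 gene and never between genes.

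The Amy is a group of nuclei with different origins. Its basolateral part holds glutamatergic projection neurons related to those of the cortex, whereas its central and medial parts are built mostly of GABAergic neurons, with groups of cells shared with the hypothalamus. The NAc is the ventral part of the striatum, where nearly all neurons are GABAergic medium spiny neurons that carry dopamine receptors and release opioid peptides or substance P. Both regions receive dopamine from the ventral tegmental area (VTA), and the basolateral Amy sends glutamatergic axons to the NAc.

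The totals of expected counts ran from 9663291 to 56648771 in the Amy and from 12091765 to 37788972 in the NAc, and none of the 24 samples went against its sex label. Some samples stood apart. In 5 of the 12 NAc samples Slc17a7 was above 20 CPM, and in the male Amy sample FTL_346 the summed level of 24 medium spiny neuron markers was 4020 CPM against 1461 to 2493 CPM in the other 11 Amy samples. Where a value turned on these samples, it is given with and without them. Among the called genes that were listed or given by sample, none moved by more than 1.5-fold without FTL_346, and 8 did without the 5 NAc samples, among them Slc17a7, Neurod1, Neurod2, Neurod6, Emx1, Pappa2 and Prdm8. None of them changed direction in either case. The 5 were picked by Slc17a7, so the move of Slc17a7 itself was fixed in advance.

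With edgeR and sex as a covariate, a gene was called where its adjusted p was under 0.05 and its log2 fold change was 0.4 or more in either direction. Of 16999 genes tested, 2140 were called higher in the Amy (12.6%) and 2047 higher in the NAc (12%), together 24.6% of all genes. At least 4-fold differences were found for 181 genes higher in the Amy (1.06%) and for 135 higher in the NAc (0.794%). For 1931 genes, 11.4% of those tested, the 12 Amy and the 12 NAc samples did not overlap at all, 1015 with the Amy above and 916 with the NAc above. The median log2 fold change over all genes was -0.0008. In the 24 samples together, the first principal component of the 500 most variable genes carried 56.5% of the variance and ran from Slc17a7, Pappa2, Neurod6 and Neurod2 at one end to Serpina9, Scn4b and Upb1 at the other.

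**Figure D1:**
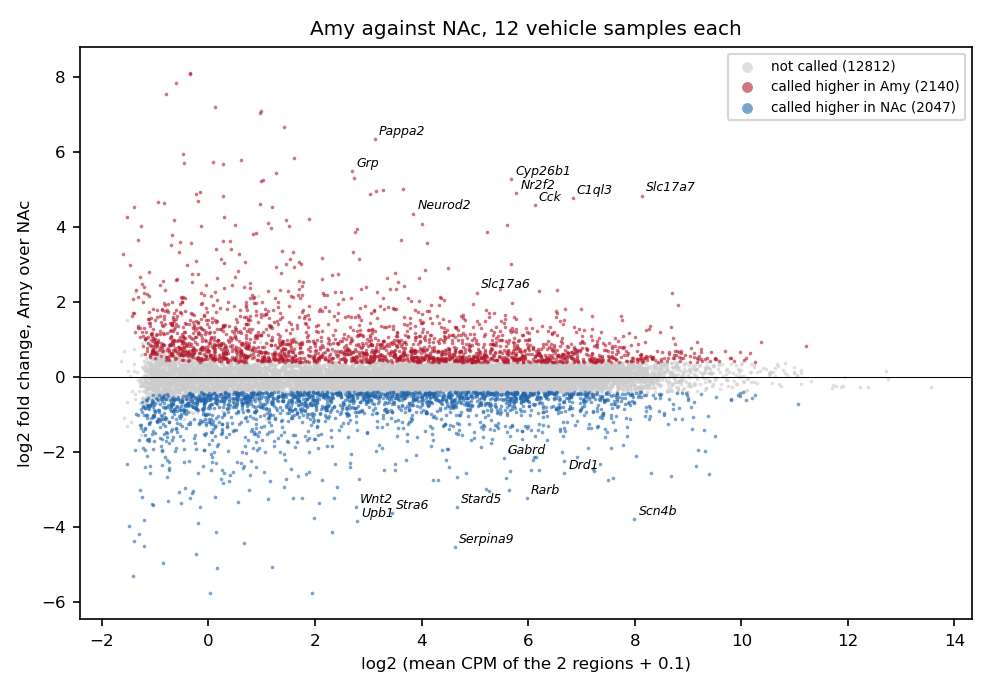
Each point is 1 of 16999 genes, plotted as the log2 fold change of Amy over NAc (vertical) against the log2 of the mean CPM of the 2 regions plus 0.1 (horizontal). Red points are the 2140 genes called higher in the Amy, blue points the 2047 called higher in the NAc, and the labelled genes reach 6.34 for Pappa2 and -4.54 for Serpina9.

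Slc17a7 and Slc17a6 encode the vesicular glutamate transporters VGLUT1 and VGLUT2, which fill synaptic vesicles with glutamate and mark, respectively, cortical-type and mostly subcortical glutamatergic neurons. Slc17a7 (mm10 chromosome 7, 45163921 to 45176139) was at 291.8 CPM in the lowest, 550 in the median and 713 in the highest Amy sample. In the NAc it was at 0.80, 0.89, 0.92, 1.15, 2.21, 2.33 and 2.89 CPM in 7 samples and at 23.8, 28.8, 35.3, 44.2 and 89.3 CPM in the other 5. The NAc samples thus fell into a low and a high set, both below every Amy sample. The log2 fold change was 4.84 ± 0.67 (SE, edgeR adjusted p = 2.03e-06, n = 12 and 12), and without the 5 NAc samples it was 8.33. The 5 were picked by their Slc17a7, so a larger change of this gene without them was fixed in advance and is no test. Slc17a6 (mm10 chromosome 7, 51621830 to 51671126) ran from 19.2 through a median of 55.2 to 91.8 CPM in the Amy and from 2.63 through 10.6 to 26.8 CPM in the NAc. The regions overlapped for Slc17a6, and its log2 fold change was 2.25 ± 0.33 (SE, edgeR adjusted p = 3.88e-06), or 1.93 without the 5 NAc samples of high Slc17a7 (edgeR adjusted p = 3.21e-05). In 11 vehicle VTA samples, Slc17a6 was at 136 to 383 CPM and Slc17a7 at 0.90 to 77.4 CPM.

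The third transporter, Slc17a8, which encodes VGLUT3 and in the striatum is known from cholinergic interneurons, went the other way. It was at 2.15 to 4.28 CPM in the Amy and at 12.4 to 22.5 CPM in the NAc, without overlap (log2 fold change -2.47 ± 0.11, edgeR adjusted p = 1.02e-15). Over the 12 Amy samples, log2 CPM of Slc17a7 and Slc17a6 had a Pearson r of -0.11 (permutation p = 0.732, adjusted p = 0.732 over 2 regions) and a Spearman rho of 0.00 (permutation p = 1.00). Without the 2 Amy samples farthest from the median of Slc17a7, r was 0.29. No pooled correlation is given for the NAc, where Slc17a7 forms 2 sets. Within the 7 NAc samples of the low set, r was -0.09 (exact permutation p = 0.824) and rho was -0.07 (exact permutation p = 0.906). Without the 2 samples farthest from the median of Slc17a7, r within this set was 0.63 over the remaining samples, so its sign rests on those 2.

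**Figure D2:**
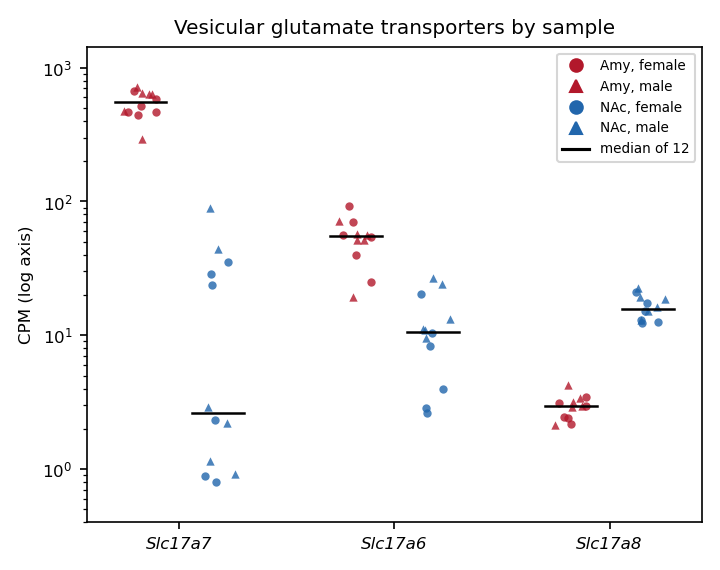
CPM of the 3 vesicular glutamate transporter genes on a log axis, with 1 point per sample (circles, females, and triangles, males), Amy in red and NAc in blue, and a bar at the median of 12 samples. Slc17a7 lies at 291.8 CPM or above in the Amy and splits into a set below 3 CPM and a set above 20 CPM in the NAc, and Slc17a8 is higher in every NAc sample than in any Amy sample.

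Most other markers of cortical and basolateral excitatory neurons were higher in the Amy along with Slc17a7. Of 20 listed genes, Slc17a7 itself included, 16 were called higher in the Amy, with a list median of 2.20. Over all genes tested, 12.6% were called higher in the Amy and 12% in the NAc. The pallial transcription factor Emx2 was the 1 called higher in the NAc (log2 fold change -0.69 ± 0.10). Neurod6 and Neurod2, helix-loop-helix factors of excitatory neurons, were at 15.2 to 34.7 and 13.5 to 38.4 CPM in the Amy. In the NAc, Neurod6 was at 0 to 3.54 CPM (log2 fold change 5.02 ± 0.42) and Neurod2 at 0.057 to 5.64 CPM (4.36 ± 0.40). Rspo2, a secreted Wnt pathway agonist, was at 8.23 to 27.7 CPM in the Amy and at 0.12 to 1.56 CPM in the NAc. Emx1 and Tbr1, transcription factors of the developing pallium, were 4.19 ± 0.32 and 2.64 ± 0.25 log2 units higher in the Amy, and Bdnf, the neurotrophin, was 3.96 ± 0.20 higher.

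The 5 NAc samples with high Slc17a7 held some other excitatory neuron genes at a higher level too. Neurod2 was at 1.46 to 5.64 CPM in these 5 samples and at 0.057 to 0.321 CPM in the other 7, and Neurod6 at 0.515 to 3.54 against 0 to 0.161 CPM. In all, 7 of the 20 listed genes were higher in each of the 5 than in any of the 7. This count includes Slc17a7, by which the 5 were chosen. The same count over all genes tested was not made, so 7 of 20 is a description only. The summed level of the list, 1722 to 2320 CPM in the 5 and 1650 to 1970 CPM in the 7, overlapped. Without these 5 samples the log2 fold changes were 8.27 for Neurod6, 6.91 for Neurod2, 7.31 for Pappa2 and 5.94 for Prdm8. Emx1 was at 5.88, Tbr1 at 2.77, Bdnf at 4.16 and Rspo2 at 5.11 without them. The counts without them were 2050 genes higher in the Amy and 1908 higher in the NAc, and 22 of 257 listed or named genes were no longer called, among them Reln, Slc18a3, Crh, Pvalb, Arc and Egr3. In bulk tissue, fewer cells of a type and less RNA per cell cannot be told apart.

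Markers of hypothalamic and medial Amy neurons were the second group higher in the Amy, with 14 of 20 called higher there. Another 1 was called higher in the NAc (Nkx2-1, -0.61 ± 0.16), and the median was 1.95. The shares over all genes tested were 12.6% and 12%. Otp, a homeobox factor of neurosecretory lineages, was at 0.234 in the lowest, 6.85 in the median and 11.0 CPM in the highest Amy sample, and at 0 to 0.397 CPM in the NAc. Sim1, its partner in those lineages, was at 0.047 to 7.81 CPM in the Amy and at 0 to 0.113 CPM in the NAc. Avp, the vasopressin precursor, was at 1.76 to 14.0 CPM in the Amy and at 0 to 0.283 CPM in the NAc, without overlap. Ucn3, which encodes the CRH receptor ligand urocortin 3, spanned 0.117 to 20.3 CPM over the Amy samples, so that the lowest Amy sample lay within the NAc range of 0.148 to 0.603 CPM. Otp, Sim1 and Ucn3 were all called, and their overlap came from male Amy sample FTL_346 alone. The lowest of the other 11 Amy samples was at 2.34 CPM for Otp, 0.593 for Sim1 and 5.98 for Ucn3, above every NAc sample. The summed level of the 20 genes was 1159 CPM in FTL_346, within the NAc range of 978 to 1366 CPM, and at least 1527 CPM in the other 11. Adcyap1, the precursor of the peptide PACAP, did not overlap, at 4.49 to 31.8 CPM in the Amy and 0 to 2.45 CPM in the NAc (log2 fold change 4.89 ± 0.42).

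Of 12 genes of sex steroid action tested, 5 were called higher in the Amy, 1 higher in the NAc and 6 were not called. Their median was 0.31. Over all genes tested, 12.6% were called higher in the Amy and 12% in the NAc. Cyp19a1, the aromatase that makes estradiol from testosterone, was at 0.421 to 4.01 CPM in the Amy and 0.057 to 0.523 CPM in the NAc (log2 fold change 2.65 ± 0.38). Esr1, encoding estrogen receptor alpha, was at 6.34 to 28.0 CPM in the Amy and 1.69 to 4.43 CPM in the NAc, without overlap (2.28 ± 0.22). The paralog Esr2 was 2.37 ± 0.24 higher and the estrogen-induced gene Greb1 2.19 ± 0.32. The member called higher in the NAc was Nr3c2, the mineralocorticoid receptor gene (-0.50).

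The central Amy, like the striatum, is built of GABAergic neurons, and its list was divided. Of 14 markers, 8 were called higher in the Amy, among them Prlr, the prolactin receptor gene (2.13 ± 0.24), Tac2, the neurokinin B precursor (2.05 ± 0.13), and Pnoc, the nociceptin precursor (1.74 ± 0.15). Another 3 were called higher in the NAc, namely Cartpt (-1.46 ± 0.20), Dlk1 (-1.19 ± 0.10) and Wfs1 (-0.48). The shares over all genes tested were 12.6% in the Amy and 12% in the NAc. Prkcd, a marker of lateral central Amy neurons, was at 16.3 to 55.4 CPM in the Amy and 9.05 to 77.3 CPM in the NAc and was not called (log2 fold change 0.10 ± 0.31, edgeR adjusted p = 0.818).

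Medium spiny neuron genes were higher in the NAc without exception among those listed. The list was drawn up with earlier results of these data known, so its counts are a description. All 24 listed genes were called higher in the NAc, against 12% of all genes tested, with a median log2 fold change of -2.32. For 23 of them no Amy sample reached the lowest NAc sample, as for 916 of all 16999 genes. The listed gene that overlapped was Penk, the enkephalin precursor, at 241 to 715 CPM in the Amy and 660 to 1055 CPM in the NAc (-1.04 ± 0.12). Ppp1r1b, which encodes the dopamine-regulated phosphatase inhibitor DARPP-32, was at 75.8 in the lowest, 177 in the median and 481 CPM in the highest Amy sample and at 787, 1176 and 1373 CPM in the NAc (-2.58 ± 0.20). Scn4b, a sodium channel beta subunit gene, was at 6.18 to 133 CPM in the Amy and at 338.2 to 651 CPM in the NAc (-3.78 ± 0.37), and its spread over the Amy samples was among the 10 largest of that region for genes with a mean of at least 10 CPM. The high Amy value of both genes was that of male sample FTL_346, and without it the log2 fold change was -4.06 for Scn4b, -2.75 for Ppp1r1b, -2.66 for Drd2, -3.21 for Gpr6, -2.30 for Gabrd and -3.38 for Rarb.

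**Figure D3:**
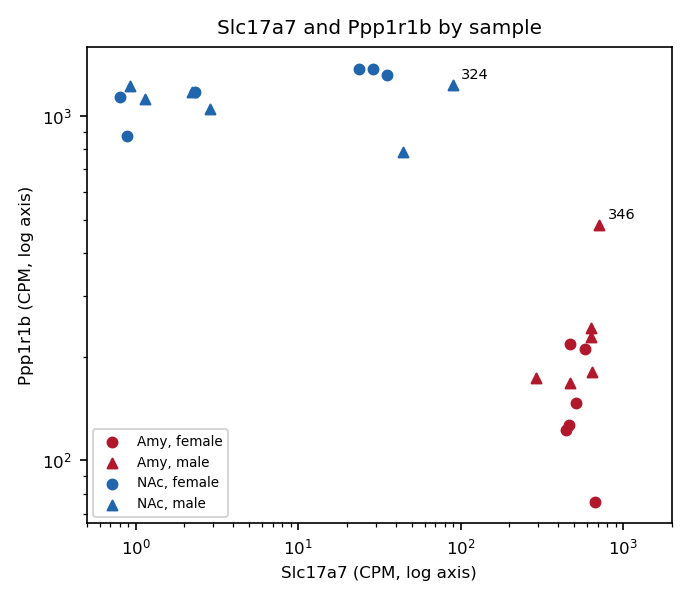
Ppp1r1b against Slc17a7, both in CPM on log axes, with 1 point for each of 24 samples, Amy in red and NAc in blue, circles for females and triangles for males. The regions separate on both axes, male Amy sample FTL_346 lies highest among the Amy samples on both, and male NAc sample FTL_324 is the NAc sample with the most Slc17a7, at 89.3 CPM.

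Dopamine receptors and their signalling proteins overlap with the medium spiny neuron list. Of 19 tested, 16 were called higher in the NAc and 1 higher in the Amy, against 12% and 12.6% of all genes tested. Drd1, the D1 receptor gene of direct pathway neurons, was at 19.9 to 51.5 CPM in the Amy and 135 to 208 CPM in the NAc (-2.56 ± 0.13). Drd2, the D2 receptor gene, was at 7.82 to 51.7 CPM in the Amy and 86.9 to 168 CPM in the NAc (-2.49 ± 0.21). Drd3, a receptor gene known for its expression in the ventral striatum, had the largest change of the receptors, at 0.087 to 1.23 CPM in the Amy and 5.61 to 8.75 CPM in the NAc (-3.37 ± 0.20). The D5 receptor gene Drd5 differed less (-0.74 ± 0.11) and overlapped between the regions. Below the receptors, the G protein subunit gene Gnal (-1.37 ± 0.10), the adenylyl cyclase gene Adcy5 (-1.56 ± 0.11), the phosphodiesterase gene Pde10a (-2.65 ± 0.19) and the G protein regulator gene Rgs9 (-2.75 ± 0.13) were all higher in the NAc. The member higher in the Amy was Slc6a3, the dopamine transporter gene, at 0.632 to 1.07 CPM in the Amy and 0.273 to 1.19 CPM in the NAc (0.45 ± 0.18). Its call was lost when single samples of either region were left out and in males alone (0.025, edgeR adjusted p = 0.952).

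Transcription factors of the pallium and the subpallium, the embryonic territories that give rise to excitatory and to inhibitory forebrain neurons, divided the same way. These lists share members with those above, so their counts are not independent of them. Neurod6, Neurod2, Emx1 and Emx2 are also in the cortical list, and Rarb, Foxp1 and Isl1 in the medium spiny neuron list. Of 21 pallial factors tested, 12 were called higher in the Amy and 3 in the NAc. Of 24 subpallial and striatal factors, 2 were called higher in the Amy and 15 in the NAc. The shares over all genes tested were 12.6% and 12%. Foxp1 (-2.25 ± 0.16) and Isl1 (-1.84 ± 0.10), both used by developing striatal neurons, were higher in the NAc. The pallial list had exceptions in Pou3f1 (-1.85 ± 0.12), Emx2 and Bcl11a, and the subpallial list in Meis1 (0.81 ± 0.11) and Ebf1 (0.56 ± 0.11). Nr2f2, the orphan nuclear receptor COUP-TFII of caudal forebrain, was at 78.5 to 136 CPM in the Amy and 1.80 to 7.31 CPM in the NAc (4.90 ± 0.16). Zic1, a zinc finger factor of the septum and ventral forebrain, was at 7.82 to 14.6 CPM in the Amy and 34.4 to 125 CPM in the NAc (-3.01 ± 0.19), and its relative Zic4 at 0.878 to 1.77 against 3.06 to 13.2 CPM (-2.93 ± 0.21).

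Retinoic acid is made from retinol inside cells, binds nuclear receptors at response elements in DNA, and is broken down by CYP26 enzymes. Genes of these steps were called in both directions. Among the 18 members, 8 were called higher in the NAc and 5 higher in the Amy, against 12% and 12.6% of all genes tested. On the supply side, Stra6, the receptor for the retinol carrier at the cell surface, was at 0.588 to 3.33 CPM in the Amy and 13.0 to 33.0 CPM in the NAc (-3.64 ± 0.19). Rdh10, which oxidizes retinol, was higher in the NAc (-0.94 ± 0.06), and Aldh1a3, which makes retinoic acid, was at 0.108 to 0.811 CPM in the Amy and 0.510 to 2.99 CPM in the NAc (-2.27 ± 0.31).

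The receptor gene Rarb (mm10 chromosome 14, 16430839 to 17082331) was at 7.29 in the lowest, 11.1 in the median and 25.2 CPM in the highest Amy sample and at 81.2, 119 and 130 CPM in the NAc (-3.22 ± 0.16, edgeR adjusted p = 2.68e-14). Its paralogs differed less, with Rarg at -0.53 ± 0.06, Rxrg at -0.70 ± 0.06, Rxra at 0.41 ± 0.06 just past the threshold, and Rara at 0.31 ± 0.09 under it. Cyp26b1 (mm10 chromosome 6, 84571414 to 84593908), whose enzyme breaks down retinoic acid, was at 51.7, 103 and 157 CPM in the Amy and at 1.70, 2.26 and 4.56 CPM in the NAc (5.28 ± 0.18, edgeR adjusted p = 1.33e-17). Its paralog Cyp26a1 was at 0.317 to 2.06 CPM in the Amy and 0.040 to 0.590 CPM in the NAc (1.94 ± 0.31). The synthesis genes Aldh1a1 (0.70 ± 0.20) and Aldh1a2 (0.62 ± 0.22) were called higher in the Amy over both sexes, but not in males alone, where they were at 0.58 (edgeR adjusted p = 0.169) and 0.22 (edgeR adjusted p = 0.604). The 11 VTA samples were at 5.93 to 9.93 CPM for Rarb and at 8.74 to 22.2 CPM for Cyp26b1.

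**Figure D4:**
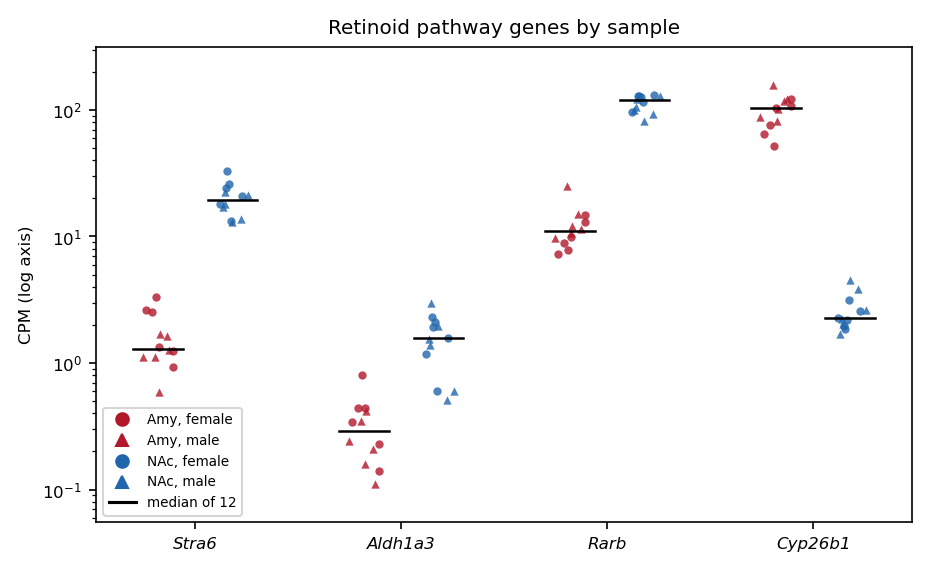
CPM of 4 retinoid pathway genes on a log axis, with 1 point per sample (circles, females, and triangles, males), Amy in red and NAc in blue, and a bar at the median of 12 samples. Stra6 and Rarb are higher in every NAc sample than in any Amy sample, Cyp26b1 is higher in every Amy sample, from 51.7 CPM upward, and Aldh1a3 overlaps.

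Promoter windows from RefSeq, 250 bases before to 50 after a transcript start in build GRCm38.p6, are shown for Rarb and Cyp26b1, the retinoid genes with opposite differences, and for the peptide gene Sst, as examples of a window with a retinoid element, without one, and with a cyclic AMP element. Capitals mark matches to the DR5 retinoic acid element, the TATA motif TATAAA or the cyclic AMP response element (CRE) TGACGTCA on either strand. A DR5 element is a pair of half-sites, such as GGTTCA and AGTTCA, in the same direction with 5 bases between them. The search for DR5 was added after the data had been seen.
Rarb, chr14:16575427-16575726, minus strand: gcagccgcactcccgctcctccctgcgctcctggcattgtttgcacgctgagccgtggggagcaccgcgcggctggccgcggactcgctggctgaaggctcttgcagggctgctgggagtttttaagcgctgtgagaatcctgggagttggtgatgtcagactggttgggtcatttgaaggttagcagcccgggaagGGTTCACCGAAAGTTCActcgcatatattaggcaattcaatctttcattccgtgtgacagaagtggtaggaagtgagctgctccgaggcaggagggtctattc
Cyp26b1, chr6:84593761-84594060, minus strand: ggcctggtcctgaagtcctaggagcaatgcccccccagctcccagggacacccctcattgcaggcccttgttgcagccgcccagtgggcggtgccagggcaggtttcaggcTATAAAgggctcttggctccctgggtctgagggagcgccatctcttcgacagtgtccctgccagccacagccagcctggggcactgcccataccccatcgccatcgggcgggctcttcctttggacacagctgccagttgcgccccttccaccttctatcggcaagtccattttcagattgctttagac
Sst, chr16:23890795-23891094, minus strand: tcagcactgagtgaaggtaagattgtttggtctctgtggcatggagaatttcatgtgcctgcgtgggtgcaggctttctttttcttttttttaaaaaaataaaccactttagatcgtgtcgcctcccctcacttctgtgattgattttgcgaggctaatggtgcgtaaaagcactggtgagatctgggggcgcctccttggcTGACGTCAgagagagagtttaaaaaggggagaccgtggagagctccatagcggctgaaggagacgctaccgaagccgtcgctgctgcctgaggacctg
The DR5 match of Rarb began 53 bases before the start, and the CRE of Sst 48 bases before it. A DR5 match was present in 32 of 32851 promoter windows (0.0974%), belonging to 31 genes. Of these, 9 were tested, with Cyp26a1, Cfap45 and Prokr2 called higher in the Amy and Rarb, Syndig1 and Gm1043 higher in the NAc. The retinoid genes among them, Cyp26a1 and Rarb, went in opposite directions. Over all genes tested, 12.6% were called higher in the Amy and 12% higher in the NAc. The 9 genes were not tested against these shares.

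Windows were found for 132 of the 181 genes at least 4-fold higher in the Amy and for 87 of the 135 at least 4-fold higher in the NAc. Other motifs were counted in the same windows. The CRE was in 1.09% of the Amy windows, 1.80% of the NAc windows and 1.79% of all windows, and TATAAA was in 12.6%, 11.7% and 13.6%. The GC box GGGCGG was in 38.8%, 40.5% and 35.7%, the E-box CANNTG in 71.6%, 78.4% and 72.3%, and the forkhead motif TGTTTAC in 3.83%, 2.7% and 3.65%. These shares are a description of these windows only.

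Neuropeptide precursors were more often higher in the Amy, with 15 of 26 called there and 4 in the NAc. Over all genes tested, these shares were 12.6% and 12%. Grp, the gastrin-releasing peptide precursor, was at 6.74 to 16.05 CPM in the Amy and 0.040 to 0.737 CPM in the NAc (log2 fold change 5.48 ± 0.25). Cck, the cholecystokinin precursor of many cortical-type and interneurons, was at 88.8 to 201 CPM in the Amy and 2.94 to 13.5 CPM in the NAc (4.58 ± 0.23). Sst, the somatostatin precursor, was at 229 to 516 CPM in the Amy and 86.9 to 151 CPM in the NAc (1.52 ± 0.10), and its relative Cort was 2.23 ± 0.26 higher in the Amy. The 4 precursors higher in the NAc were Tac1, which encodes substance P, Pdyn, Cartpt and Penk. Tac1 was at 33.9 to 71.6 CPM in the Amy and 154 to 242 CPM in the NAc (-2.13 ± 0.10), and Pdyn, the dynorphin precursor, was at 46.6 to 126 against 169 to 317.04 CPM (-1.47 ± 0.13).

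Neuropeptide receptors were called higher in the Amy for 17 of 35 members and in the NAc for 7, against 12.6% and 12% of all genes tested. The VIP receptor gene Vipr2 (2.31 ± 0.23) had its ligand gene Vip higher in the Amy too (2.19 ± 0.15). The somatostatin receptor gene Sstr2 (2.04 ± 0.10), the orexin receptor gene Hcrtr1 (1.99 ± 0.19) and the oxytocin receptor gene Oxtr (1.59 ± 0.09) were higher in the Amy. Higher in the NAc were Oprk1, the receptor gene for dynorphin (-0.80 ± 0.09), and Npy5r, a neuropeptide Y receptor gene (-0.80 ± 0.09). Avpr1a, a vasopressin receptor gene, was also called higher in the NAc (-0.94 ± 0.29), opposite to Avp, but not in females alone, where the log2 fold change was -0.38 (edgeR adjusted p = 0.468).

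Cholinergic interneurons of the striatum and cholinergic projection neurons of the basal forebrain share their markers. Of 9 such genes, 7 were called higher in the NAc, against 12% of all genes tested. Chat, which makes acetylcholine, was at 0.878 to 19.4 CPM in the Amy and 13.5 to 32.9 CPM in the NAc (-1.11 ± 0.31), with overlap. The choline transporter gene Slc5a7 (-1.24 ± 0.27) and the transcription factor gene Gbx2 (-1.36 ± 0.32) also overlapped. Chat was not called in males alone (-0.86, edgeR adjusted p = 0.0739), nor Gbx2 in females alone (-1.28, edgeR adjusted p = 0.0513).

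The endocannabinoids anandamide and 2-arachidonoylglycerol act on the CB1 receptor, the target of THC in the brain. Cnr1, its gene, was at 117 to 218 CPM in the Amy and 52.2 to 139 CPM in the NAc (log2 fold change 1.29 ± 0.12, edgeR adjusted p = 1.84e-09). The only NAc sample in the Amy range was male sample FTL_325. Of the anandamide enzymes, Faah, which degrades anandamide, was at 57.3 to 76.6 CPM in the Amy against 21.7 to 31.8 CPM (1.32 ± 0.06). Napepld, which makes it, was 1.07 ± 0.08 higher in the Amy, and Naaa was not called (0.055). Mgll, which degrades 2-arachidonoylglycerol, went the other way, at 97.4 to 146 CPM in the Amy and 184 to 259 CPM in the NAc (-0.95 ± 0.07), whereas Dagla, which makes it, was not called (0.08 ± 0.06, edgeR adjusted p = 0.261). Of 11 members tested, 5 were called higher in the Amy and 1 in the NAc, against 12.6% and 12% of all genes tested. Daglb (0.03), Abhd6 (0.019) and Abhd12 (0.18) were also not called.

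Receptors for glutamate and GABA differed by subunit. Over all genes tested, the shares called were 12.6% higher in the Amy and 12% higher in the NAc. Among 17 ionotropic glutamate receptor genes, 4 were called higher in the Amy and 1 in the NAc, and the obligatory NMDA receptor subunit gene Grin1 was not called (0.05 ± 0.04, edgeR adjusted p = 0.297). Grm2, a presynaptic inhibitory receptor gene, was at 31.0 to 47.3 CPM in the Amy and 3.73 to 6.43 CPM in the NAc (2.91 ± 0.09), and Grm8 was 2.10 ± 0.09 higher in the Amy, whereas Grm4 (-1.41 ± 0.09) and Grm3 (-1.01 ± 0.10) were higher in the NAc. Gabrd, the delta subunit gene of extrasynaptic GABA-A receptors, was at 11.7 to 32.3 CPM in the Amy and 50.6 to 96.2 CPM in the NAc (-2.16 ± 0.15). Its partner Gabra4 was also higher in the NAc (-0.54 ± 0.08), and Gabre (1.76 ± 0.19) and Gabrq (1.44 ± 0.24) were higher in the Amy. Of 15 GABA-A subunit genes, 5 were called higher in the Amy and 3 in the NAc. Among 12 serotonin receptor genes the calls were 4 and 4, with Htr3a, the channel subunit of interneurons, higher in the Amy (1.77 ± 0.18) and Htr6 higher in the NAc (-1.41 ± 0.09).

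Of 6 vesicular transporter genes, 2 were called higher in the Amy and 2 in the NAc, and of 19 interneuron markers 10 and 4. For 35 cyclic nucleotide enzymes and RGS proteins the calls were 7 and 14. The shares over all genes tested were 12.6% and 12%.

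Genes of cell contact and guidance were called in both directions. The counts of this paragraph stand beside shares over all genes tested of 12.6% higher in the Amy and 12% higher in the NAc. Of 17 classical cadherins, 6 were called higher in the Amy, with Cdh9 at 1.53 ± 0.08, and 4 in the NAc, with Cdh7 at -1.03 ± 0.09. Of 20 Eph receptors and ephrins, 5 were called higher in the Amy and 4 in the NAc, with the receptor gene Epha8 at -2.20 ± 0.13 and the ligand gene Efnb2 at -1.35 ± 0.06. Of 22 imprinted genes, 7 were called higher in the Amy, with the cell cycle inhibitor gene Cdkn1c at 1.90 ± 0.12, and 2 in the NAc. Among 15 immediate early genes, 2 were called higher in the Amy, with Nr4a3 at 1.54 ± 0.17, and 6 in the NAc. Of the 6, Npas4, Arc, Egr3 and Dusp1 were not called in males alone, in THC samples or without the 5 NAc samples of high Slc17a7, and the Amy call of Ier2 was lost in females alone.

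Oligodendrocyte, microglial and endothelial markers gave few calls. The counts of glial and endothelial markers stand beside shares over all genes tested of 12.6% higher in the Amy and 12% in the NAc. None of 17 oligodendrocyte markers was called by edgeR, with log2 fold changes from -0.13 to 0.22, and Mbp, a main myelin gene, was at 0.11 ± 0.14. Their summed level ran from 2774 to 8605 CPM in the Amy and from 4164 to 7631 CPM in the NAc. None of 12 microglial markers was called, with a range of 0.02 to 0.22, and of 11 endothelial markers 1 was called, Flt1, at -0.40. Of 14 astrocyte markers, 4 were called higher in the Amy and 0 in the NAc. Gfap, the astrocyte filament gene, was at 80.5 to 256 CPM in the Amy and 31.5 to 66.3 CPM in the NAc (1.80 ± 0.18), and Agt, the angiotensinogen gene, at 51.7 to 110 CPM against 4.56 to 57.0 CPM (1.98 ± 0.33). The glutamate transporter gene Slc1a2, used by nearly all astrocytes, was not called (-0.19 ± 0.09, edgeR adjusted p = 0.0653), and the summed level of the 14 genes was 3263 to 4337 CPM in the Amy and 3732 to 4396 CPM in the NAc.

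**Figure D5:**
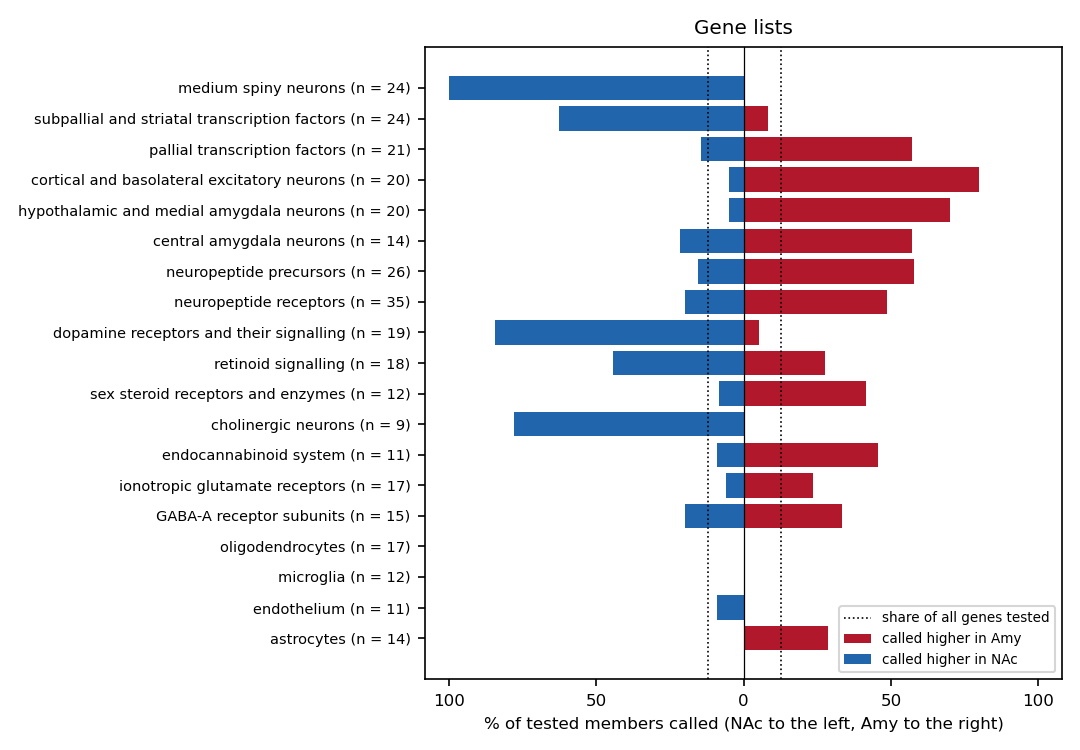
For 19 gene lists, the share of tested members called higher in the Amy (red, to the right) and higher in the NAc (blue, to the left), with the number tested in brackets and dotted lines at the share of all genes tested, 12.6% and 12%. Medium spiny neuron genes are called in the NAc for 24 of 24 members, and oligodendrocyte and microglial markers have 0 calls on both sides. The lists were drawn up with earlier results of these data known.

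Markers of tissue next to the punches were also counted. Over all genes tested, 12.6% were called higher in the Amy and 12% higher in the NAc. The lists are small, and their counts were not tested against these shares. Of 9 thalamic markers 2 were called higher in the Amy and 2 in the NAc, of 7 hippocampal markers 3 and 1, of 9 markers of the globus pallidus and septum 2 and 3, and of 7 choroid plexus and ependyma markers 2 and 1. Each of these last 3 calls was lost in some alternatives, Aqp1 with DESeq2, with no filter on low counts, without the 5 NAc samples and when FTL_309, FTL_314, FTL_335 or FTL_338 was left out, Enpp2 in males alone and without the 5 NAc samples, and Clic6 in females alone and in THC samples. The summed level of the choroid plexus and ependyma markers was 139 to 685 CPM in the Amy and 170 to 203 CPM in the NAc, and the 3 highest Amy samples, at 370, 535 and 685 CPM, were all female. The part of these markers in the results above was not tested.

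The other genes with the largest differences came from several families. Pappa2, a protease that cleaves insulin-like growth factor binding proteins, was at 6.48 in the lowest, 16.8 in the median and 31.7 CPM in the highest Amy sample and at 0 to 0.401 CPM in the NAc (log2 fold change 6.34 ± 0.32). C1ql3, a secreted synaptic protein gene, was at 135 to 270 CPM in the Amy and 6.06 to 13.3 CPM in the NAc (4.78 ± 0.14), and Prdm8, a transcriptional repressor gene, at 11.2 to 25.2 against 0.082 to 1.39 CPM (5.0 ± 0.23). In the NAc, Serpina9, a serine protease inhibitor gene, was at 34.3, 47.6 and 59.7 CPM in the lowest, median and highest sample, against 1.15 to 3.10 CPM in the Amy (-4.54 ± 0.13). Stard5, a lipid transfer protein gene, was at 27.1 to 59.0 CPM in the NAc and 3.27 to 5.03 CPM in the Amy (-3.46 ± 0.10). Upb1, an enzyme of pyrimidine breakdown, was at 8.39 to 17.0 against 0.479 to 1.71 CPM (-3.84 ± 0.17), and Wnt2, a secreted Wnt ligand gene, at 10.3 to 15.7 against 0.344 to 1.94 CPM (-3.48 ± 0.15). Gpr6, an orphan receptor gene of indirect pathway neurons, was at 41.7 to 87.4 against 3.51 to 17.9 CPM (-3.05 ± 0.19), Gpr149 at 26.1 to 37.1 against 2.79 to 8.23 CPM (-2.75 ± 0.11), and Prkch, a protein kinase C gene, at 38.1 to 84.7 against 4.19 to 16.2 CPM (-2.98 ± 0.18).

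Whether the difference between the regions depended on sex was tested next. In a fit with a region x sex term, edgeR called 0 of 16999 genes, and the smallest adjusted p was 0.238, for Ptprv. The unadjusted edgeR p was under 0.05 for 1664 genes, more than a share of 0.05 of those tested. With 6 samples per region and sex, the absence of calls does not show that the sexes are alike. DESeq2 called 1 gene, Ptprv, whose log2 fold change was 1.17 higher in males (DESeq2 adjusted p = 0.00911). Tested in each sex alone, 2169 genes were called higher in the Amy in females and 1565 in males, and 1359 were shared, 62.7% of the female and 86.8% of the male calls. For the NAc, 2224 and 1352 genes were called, and 1150 were shared, 51.7% and 85.1%. A single gene was called in opposite directions, Slc13a4, a sulfate transporter gene, at 1.51 in females (edgeR adjusted p = 0.0326) and -1.30 in males (edgeR adjusted p = 0.0251), but its region x sex term did not pass (edgeR adjusted p = 0.488).

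The regions were also compared in 24 samples of mice given THC at 10 mg/kg on the same days, which share no sample with the vehicle comparison. Of the 2140 vehicle calls higher in the Amy, 1891 (88.4%) were called there too, 79.7% of the 2372 THC calls, and of the 2047 higher in the NAc, 1722 (84.1%), 79.3% of the 2172 THC calls. No gene was called in opposite directions. In the THC samples Slc17a7 was 5.72 and Slc17a6 2.89 log2 units higher in the Amy, Rarb was at -3.14, and 2 of those 24 samples went against their sex label.

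Within a region, the Amy samples were the more variable. The SD of log2 CPM within a region and sex had a median over genes of 0.194 in the Amy and 0.145 in the NAc, and was larger in the Amy for 65.2% of genes. Among genes of at least 10 CPM, the most variable in both regions included the small noncoding RNAs Rn7s1 and Rn7s2 and the neurotrophin receptor gene Ngfr, with SDs for Ngfr of 1.08 in the Amy and 1.13 in the NAc. Ucn3 (SD 1.77) and Scn4b (1.02) were among the 10 most variable only in the Amy, and Slc17a7 (2.65), Prkcd (1.09), Agt (0.97) and Irs4 (0.93) only in the NAc. These SDs are a description, since the genes were ranked by them.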

How the data were processed

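Punches of the Amy and NAc of vehicle-treated mice gave 24 of 119 samples, grouped by their titles. The authors trimmed reads with cutadapt 2.9, aligned them to mm10 with STAR 2.7.3a and counted them with RSEM 1.3.1. The authors deposited RSEM's expected counts per gene symbol, in which a read with several possible origins is shared out, and 5.02% of the values in the 24 samples were not whole. Fold changes of genes with near-identical copies are therefore uncertain. A second deposited table, of other regions, was not used here.

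Counts were rounded and fitted with edgeR 4.0.16 in R 4.3.3 (filterByExpr, TMM, robust quasi-likelihood test, sex as covariate). Adjustment was by Benjamini-Hochberg across the 16999 genes. The SE after each ± was worked out as the absolute log2 fold change over the square root of the test's F statistic. It is therefore approximate. The study itself used DESeq2, tried here as version 1.42.0. Because Amy and NAc samples of 1 mouse could not be matched, p-values treat the samples as independent. With totals from 9663291 counts upward, genes under about 1 CPM rest on few reads. The fits were tested on simulated counts.

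Named genes were Slc17a7 and Slc17a6, the 12 called genes of largest change in each direction with at least 10 CPM and no overlap, up to 3 members per list and direction with their paralogs and partners, and the 10 most variable genes of a region. Symbols of the Gm and Rik kind were left out, and some genes that the rule names are not reported here. Members and lists were chosen with earlier results of these data known. Promoters and positions are from RefSeq, GRCm38.p6, the assembly behind mm10. Fold changes without FTL_346 or the 5 NAc samples were read from the same fits. Alternatives were DESeq2, its size factors, total counts, no filter, no sex covariate, each sex, THC samples, thinned counts and each sample left out. The count without 5 NAc samples was chosen after seeing the data.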

Additional observations from a re-analysis of the deposited data

Results flagged for a closer look

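The 46 genes given by sample, and the totals, made 188 groups of 6 samples, by region and sex. Groups with equal values throughout, such as the female NAc for Sim1 and Avp, could give no flag. For normally distributed values chance alone gives about 1 in 20 groups, and whether CPM are so distributed was not tested. By Dixon's ratio, 19 values stood apart from the other 5 of their group. Male Amy sample FTL_346 gave 9 of them, each the highest of its group, at 2.74 CPM for Serpina9, 1.59 for Upb1, 133 for Scn4b, 25.2 for Rarb, 17.9 for Gpr6, 51.7 for Drd2, 481 for Ppp1r1b, 32.3 for Gabrd and 146 for Mgll. All of these genes were higher in the NAc. Without this sample 2170 genes were called higher in the Amy and 2157 in the NAc.

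In the female Amy, sample FTL_336 was highest for Upb1 (1.71 CPM) and sample FTL_338 for Tac1 (71.6 CPM). In the male Amy, sample FTL_350 was lowest for Neurod2 (13.5 CPM) and sample FTL_348 highest for Sim1 (7.81 CPM). In the male NAc, sample FTL_323 was highest for Nr2f2 (7.31 CPM) and Sim1 (0.11 CPM) and lowest for Drd3 (5.61 CPM). For Sim1 the other male NAc samples were at 0 CPM, so this flag rests on few reads. Male NAc sample FTL_325 was highest for Cnr1 (139 CPM). In the female NAc, sample FTL_313 was highest for Rspo2 (0.89 CPM) and Agt (37.1 CPM).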

How the results depend on the processing

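The numbers of genes called higher in the Amy stayed within 1.5 times of 2140 under every alternative run, and those called higher in the NAc within 1.5 times of 2047 except in males alone, with 1352. The genes at least 4-fold higher numbered 406 in the Amy and about 2.9e+02 in the NAc with DESeq2, and 642 and 455 with no filter on low counts, where more genes of low count were tested, against 181 and 135. DESeq2 called 1 region x sex gene against 0. Leaving out each of 24 samples in turn gave 2047 to 2184 genes higher in the Amy, 1967 to 2207 higher in the NAc, 175 to 199 and 136 to 154 at least 4-fold higher, and 0 region x sex genes. Of 257 genes called and listed or named, none changed direction when called under any alternative, 31 were no longer called in males alone, 22 without the 5 NAc samples of high Slc17a7, 16 in THC samples, 8 in females alone and at most 9 when 1 sample was left out. Without male NAc sample FTL_323 the change of Sim1 moved by over 1.5 times. No paired analysis was possible because the labels do not say which samples share a mouse. Depth limits Sim1, Avp, Cyp26a1 and other genes near 0 in a region, whose fold changes depend on few reads.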

Other observations

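Neurod2 and Ppp1r1b, chosen after their values were seen, lie 18.8 kb apart on mouse chromosome 11 and differed in opposite directions. Neurod2 was 4.36 ± 0.40 log2 units higher in the Amy, and Ppp1r1b was at -2.58 ± 0.20.

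Ptprc, the gene of the leukocyte surface phosphatase CD45, which also marks microglia, was called higher in the Amy although none of 12 microglial markers was called. It was at 11.9 in the lowest, 20.2 in the median and 25.8 CPM in the highest Amy sample and at 1.91, 2.89 and 3.62 CPM in the NAc (log2 fold change 2.78 ± 0.14, edgeR adjusted p = 5.98e-15), and at 2.77 to 5.23 CPM in the 11 VTA samples. Cd4, a T cell and myeloid receptor gene, was at 0.838 to 9.66 CPM in the Amy and 11.7 to 29.9 CPM in the NAc, without overlap (-2.48 ± 0.27). Both genes were chosen after their values were seen.

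Among the 12 NAc samples alone, the first principal component carried 35.8% of the variance of 500 genes, and one end of it held genes of motile cilia such as Dnah3, Cfap43 and Tmem212. Tmem212 was at 0 to 3.14 CPM in the NAc and was not called between the regions (-0.69 ± 0.66, edgeR adjusted p = 0.385). Among the 12 Amy samples, the first component carried 23.5%, with the choroid plexus genes Aqp1 and Otx2 at one end. Aqp1 was at 0.078 to 7.57 CPM in the Amy and 0.184 to 0.608 CPM in the NAc.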
